A study of Mus musculus with 23 samples.

Results

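The 10 genes described here are endothelial and angiogenic genes chosen by name: Pecam1, Cdh5, Kdr, Flt1, Tek, Tie1, Angpt1, Angpt2, Vegfb and Vegfc. All 10 were found among the 47311 genes with a summed count, and all 10 passed the filter on low counts that left 19882 genes for testing. RNA-seq of mammary fat pad lying next to a tumor measured them in 23 libraries, 1 for each female C57BL/6J mouse. The tumor came from 250000 luciferase-marked E0771 cells (a murine breast carcinoma line) injected in matrigel into mammary gland 4. The 4 groups were 8 obese mice given anti-PD-1, 5 obese mice given IgG2a, 5 lean mice given anti-PD-1 and 5 lean mice given IgG2a. Obese mice were kept on food with 60% of calories as fat (8 to 26 weeks of age) and lean mice are labelled as fed 10% of calories as fat, although their treatment text, like that of all samples, mentions no food but the high-fat one. Anti-PD-1 blocks an inhibitory receptor on T cells, and IgG2a is its isotype control. Both antibodies were given at 200 µg, starting on day 3 and repeated every 3 days to day 21. The labels name no litter, cage or batch, so p-values measure the spread between these libraries.

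Blood vessels are lined by endothelial cells, which are held together by junction proteins and take growth signals through receptor kinases on their surface. Vascular endothelial growth factors (VEGFs) act through the receptors encoded by Kdr and Flt1, and the angiopoietins act through the Tek receptor, with Tie1 as its partner. Angpt1 is the ligand that keeps vessels quiet and stable, Angpt2 counters it in many settings and marks vessels under remodelling, Vegfb is linked to lipid handling in fat and muscle, and Vegfc drives lymphatic growth. In fat tissue the capillary bed grows and thins with the size of the fat cells, and endothelial junction and receptor genes are often used to follow it.

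Adipocyte markers were high in every library (mean log2 CPM, counts scaled to the library total by TMM, of 10 genes, 8.07 to 11.03). Libraries held 49438121 to 77369057 estimated counts, and 14806 to 18403 genes reached 10 counts. The libraries fell into separate sets by the same mean over 10 B cell genes. In 11 libraries this score was at least 5.16, and in 12 it was at most -0.566. High scores were found in 2 of 8 obese anti-PD-1, 2 of 5 obese IgG2a, 3 of 5 lean anti-PD-1 and 4 of 5 lean IgG2a libraries. Markers of cell types also differed between the diets. Averaged over the antibodies, where 18.8% of all tested genes were called, 8 of 8 mammary epithelial, 8 of 10 skeletal muscle, 4 of 10 adipocyte and 2 of 7 fibroblast markers were called lower in obese mice. Called higher were 1 of 10 adipocyte, 4 of 8 macrophage and 4 of 8 liver markers. The liver and muscle counts did not describe all mice of a diet. The same mean over the liver genes was 9.1 in obese IgG2a library 5 and at most 2.07 in the others. Over the muscle genes it was 4.81 to 7.81 in libraries 1 and 2 of both lean groups. It was 4.74 in obese IgG2a library 3 and at most 1.64 in the rest. The liver gene Alb stood apart at 6363 CPM in obese IgG2a library 5, though its median was 23.4 CPM in obese and 74.0 CPM in lean mice. Hmga2 reached 94.2 and 170.0 CPM in obese IgG2a libraries 2 and 5. It was 18.95 CPM in obese IgG2a library 4 and 5.84 CPM in obese anti-PD-1 library 8, against at most 0.849 CPM in lean mice. The later fit without obese IgG2a libraries 2 and 5 keeps library 4. What part any of these had in the values that follow was not tested, except where values with and without them are given. In whole tissue, fewer cells of a type and less RNA per cell cannot be told apart.

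Of the 10 genes, 4 encode receptor kinases: Kdr, Flt1, Tek and Tie1. Their promoters are shown first. These 4 genes varied together across the libraries, as did Cdh5, for which no window was used. Whether promoter sequence had a part in that was not tested. Each window runs 250 bases before to 50 bases after the annotated start, on the gene's strand, 5′ to 3′, from RefSeq (GRCm38.p6). Capitals mark every GGAA or TTCC, the core bound by ETS factors read on either strand.
Kdr promoter, chr5:75978406-75978705, minus strand: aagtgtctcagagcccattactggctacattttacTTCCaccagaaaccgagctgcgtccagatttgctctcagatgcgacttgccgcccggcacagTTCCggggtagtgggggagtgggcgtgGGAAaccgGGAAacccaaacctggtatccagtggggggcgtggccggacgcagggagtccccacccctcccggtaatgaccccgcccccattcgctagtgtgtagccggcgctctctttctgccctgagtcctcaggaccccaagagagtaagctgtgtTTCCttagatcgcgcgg
Flt1 promoter, chr5:147725962-147726261, minus strand: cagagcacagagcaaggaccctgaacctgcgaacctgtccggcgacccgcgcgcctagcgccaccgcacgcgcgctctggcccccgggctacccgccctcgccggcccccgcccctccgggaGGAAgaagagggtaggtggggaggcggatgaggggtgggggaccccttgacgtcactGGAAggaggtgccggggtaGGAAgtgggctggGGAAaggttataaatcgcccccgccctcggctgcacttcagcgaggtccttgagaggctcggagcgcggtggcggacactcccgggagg
Tek promoter, chr4:94739039-94739338, plus strand: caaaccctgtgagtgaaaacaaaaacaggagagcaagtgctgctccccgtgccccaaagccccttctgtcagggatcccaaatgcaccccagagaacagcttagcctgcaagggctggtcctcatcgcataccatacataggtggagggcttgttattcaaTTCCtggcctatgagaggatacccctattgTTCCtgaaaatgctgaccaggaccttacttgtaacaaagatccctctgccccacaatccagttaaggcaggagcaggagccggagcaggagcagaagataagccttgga
Tie1 promoter, chr4:118489800-118490099, minus strand: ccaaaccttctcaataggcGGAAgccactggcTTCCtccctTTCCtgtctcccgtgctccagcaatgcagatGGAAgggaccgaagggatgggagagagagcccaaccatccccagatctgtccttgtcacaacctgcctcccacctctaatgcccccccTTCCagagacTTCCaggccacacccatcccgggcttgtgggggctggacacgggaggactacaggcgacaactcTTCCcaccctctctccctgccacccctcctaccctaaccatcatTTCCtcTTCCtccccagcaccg
The core occurred 5 times in the Kdr window, 4 times in Flt1, 2 times in Tek and 9 times in Tie1. It occurred at least once in 96% of 32851 promoter windows of the same length, with a median of 3, so its presence is common. As many as the 9 of Tie1 were held by 1.59% of windows, as many as the 5 of Kdr by 28.6%, as many as the 4 of Flt1 by 46.3% and as many as the 2 of Tek by 84.6%. The core of the hypoxia response element, ACGTG or its reverse complement CACGT, was in none of these 4 windows and in 19.6% of all windows. Windows were also held for Vegfb and Vegfc, and none was used for Pecam1, Cdh5, Angpt1 and Angpt2.

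Compared per transcript length, in TPM (abundance scaled by length and library total), the members spanned a wide range of levels. Vegfb was the highest at 122.5 ± 44.9 TPM (SD over 23 libraries), followed by Pecam1 at 89.6 ± 34.4 and Cdh5 at 59.3 ± 40.9. The receptors followed, with Kdr at 23.7 ± 11.7, Tie1 at 20.8 ± 10.1, Flt1 at 17.1 ± 10.9 and Tek at 10.96 ± 6.82 TPM. The 3 lowest were the ligands Angpt1 at 4.07 ± 2.04, Vegfc at 3.48 ± 2.39 and Angpt2 at 3.27 ± 2.48 TPM. Pecam1 exceeded Cdh5, Cdh5 exceeded Kdr, Flt1 exceeded Tek and Tek exceeded Angpt1 in 23 of 23 libraries. Other neighbours changed places: Vegfb exceeded Pecam1 in 17, Kdr exceeded Tie1 in 16, Tie1 exceeded Flt1 in 19, Angpt1 exceeded Vegfc in 10 and Vegfc exceeded Angpt2 in 16 of 23 libraries.

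The order at the bottom differed by diet. Angpt1 averaged 3.79 ± 1.82 TPM in obese anti-PD-1 and 2.29 ± 1.51 in obese IgG2a mice, against 4.77 ± 1.66 in lean anti-PD-1 and 5.62 ± 2.08 in lean IgG2a mice. Vegfc averaged 5.53 ± 2.33 and 3.44 ± 2.50 TPM in the same obese groups, against 1.75 ± 0.551 and 1.98 ± 0.687 in the lean ones. Angpt2 averaged 5.27 ± 2.44 and 3.28 ± 2.50 TPM in the obese groups, against 1.45 ± 0.676 and 1.88 ± 1.45 in the lean ones. Vegfc and Angpt2 thus stood above Angpt1 in the mean of each obese group and below it in the mean of each lean group.

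**Figure D1:**
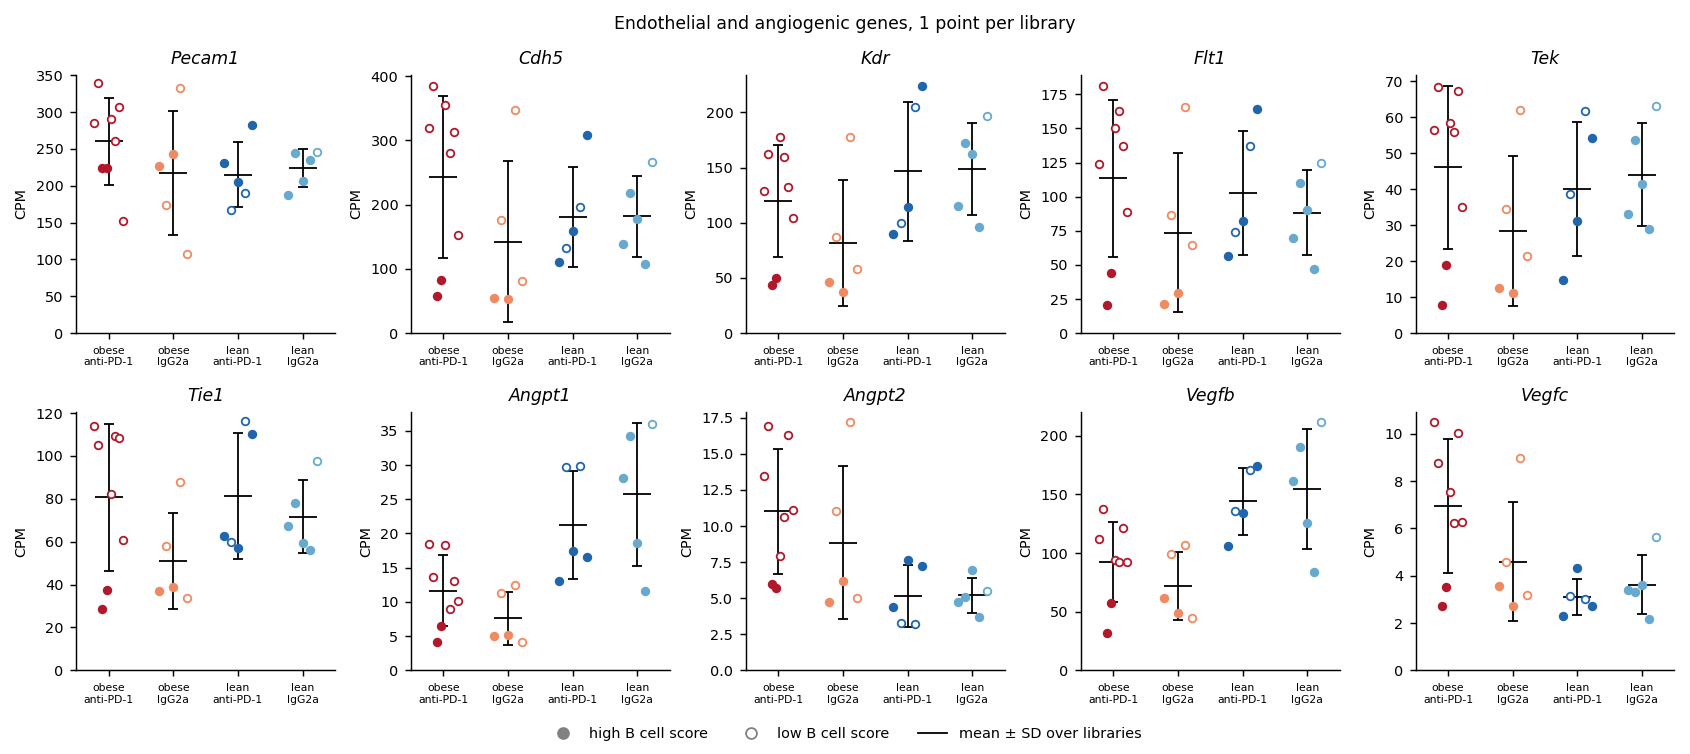
CPM (vertical axes, a separate scale for each gene) of the 10 genes in every library, by group; filled points mark the 11 high-score and open points the 12 low-score libraries (B cell score), and bars are the mean ± SD. Angpt1 and Vegfb lie lower in obese than in lean mice, Angpt2 lies higher, and the 4 filled obese points are among the lowest for Cdh5, Kdr, Flt1, Tek and Tie1.

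Obese mice were first set against lean mice, to ask which vessel genes differ with diet. Averaged over the antibodies, Angpt1 and Vegfb fell, Angpt2 rose, and none of the 6 junction and receptor genes passed the test. Thus 3 of the 10 genes were called, which is 1 higher and 2 lower, where 18.8% of all tested genes were called (10.6% higher and 8.15% lower). The test was edgeR's quasi-likelihood test with Benjamini-Hochberg adjustment over the 19882 genes, two-sided, with a call at an adjusted p under 0.05. Each standard error (SE) was worked back from that test, as the size of the log2 fold change divided by the square root of its F statistic. Coordinates are those of GRCm38. The median log2 fold change of the 10 genes was -0.14, against 0.12 over all tested genes.

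Pecam1 (ENSMUSG00000020717, chromosome 11, 106654217 to 106750628, minus strand) encodes an adhesion protein of endothelial junctions (also found on platelets and leukocytes) and had the smallest spread of the 10 relative to its mean in CPM (in TPM, Vegfb had). It averaged 260.5 ± 58.8 CPM in obese anti-PD-1 and 217 ± 83.7 in obese IgG2a mice, against 215 ± 44.5 in lean anti-PD-1 and 224 ± 25.4 in lean IgG2a mice. The averaged log2 fold change was 0.12 (SE 0.166, adjusted p = 0.72 by edgeR). In CPM the libraries of the 2 diets overlapped, with 5 of 13 obese libraries above and 2 below every lean one. Its TPM averaged 117 ± 31.8 and 86.0 ± 43.0 in the same obese groups, against 68.9 ± 15.7 and 69.8 ± 10.1 in the lean ones. Under other settings Pecam1 was called higher in 1 of 10 averaged (values of 0.02 to 0.47). Under anti-PD-1 it was called higher in 1 of 11 (values of -0.05 to 0.74).

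Cdh5 (ENSMUSG00000031871, chromosome 8, 104101625 to 104144511, plus strand) encodes VE-cadherin, the adherens junction protein of endothelium, and spread much more widely. In obese mice it ranged between 58.4 and 384 CPM with a median of 297 under anti-PD-1, and it was 54.2, 176, 53.0, 347 and 81.9 CPM under IgG2a. In lean mice it was 111, 132, 158, 196 and 308 CPM under anti-PD-1 and 139, 218.5, 178, 107 and 266 CPM under IgG2a. Obese libraries lay on both sides of the lean ones, 5 of 13 above every lean library and 5 below every lean library, and the averaged log2 fold change was 0.04 (SE 0.349, adjusted p = 0.968).

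Kdr (ENSMUSG00000062960, chromosome 5, 75932827 to 75978458, minus strand) encodes the main signalling receptor for VEGF-A. It ranged between 43.4 and 178 CPM with a median of 131 in obese anti-PD-1 mice, and was 46.6, 87.2, 37.7, 178 and 57.9 CPM in obese IgG2a mice. In lean mice it was 90.2, 99.8, 114, 205 and 224 CPM under anti-PD-1 and 115, 172, 162, 96.3 and 197 CPM under IgG2a. No obese library exceeded every lean one and 6 of 13 lay below every lean one. The log2 fold change was -0.29 under anti-PD-1 (SE 0.374, adjusted p = 0.727), -0.87 under IgG2a (SE 0.421, adjusted p = 0.257) and -0.58 averaged (SE 0.281, adjusted p = 0.163), and none passed the test.

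Flt1 (ENSMUSG00000029648, chromosome 5, 147561604 to 147726011, minus strand) encodes the other VEGF receptor, which also binds VEGF-B and acts in part as a decoy. Its means were 114 ± 57.5 CPM in obese anti-PD-1 and 73.7 ± 58.0 in obese IgG2a mice, against 103 ± 45.5 in lean anti-PD-1 and 88.3 ± 31.1 in lean IgG2a mice. Tek (ENSMUSG00000006386, chromosome 4, 94739289 to 94874976, plus strand) encodes the angiopoietin receptor and averaged 46.0 ± 22.7 and 28.4 ± 20.9 CPM in the obese groups, against 40.0 ± 18.6 and 44.0 ± 14.2 in the lean groups. Tie1 (ENSMUSG00000033191, chromosome 4, 118471191 to 118490061, minus strand) encodes its co-receptor and averaged 80.7 ± 34.4 and 51.0 ± 22.6 CPM in the obese groups, against 81.2 ± 29.4 and 71.8 ± 16.8 in the lean groups. Averaged log2 fold changes were -0.06 for Flt1 (SE 0.35), -0.22 for Tek (SE 0.339) and -0.25 for Tie1 (SE 0.238), with adjusted p-values of 0.947, 0.749 and 0.54. These differences were smaller than the spread between libraries, in which the SD of an obese group came to a large part of its mean.

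Angpt1 (ENSMUSG00000022309, chromosome 15, 42424723 to 42676977, minus strand) had the smallest adjusted p of the 10. The library kit did not keep strand, and 737 of its 5205 exonic bases (14.2%) are shared with the antisense gene Gm17473, so reads from the 2 genes cannot be told apart there. It was between 4.11 and 18.4 CPM with a median of 11.6 in obese anti-PD-1 mice, and 5.08, 11.2, 5.22, 12.4 and 4.14 CPM in obese IgG2a mice. It was 13.01, 29.7, 17.4, 29.8 and 16.6 CPM in lean anti-PD-1 mice and 28.1, 34.3, 18.7, 11.6 and 36.0 CPM in lean IgG2a mice. No obese library exceeded every lean one and 8 of 13 lay below every lean library. The averaged log2 fold change was -1.31 (SE 0.275, adjusted p = 0.0019). Under IgG2a it was -1.76 (SE 0.418, adjusted p = 0.0156), and under anti-PD-1 it was -0.87 (SE 0.36, adjusted p = 0.128), which did not pass. In the IgG2a comparison Angpt1 was the 1 of 10 genes called, where 5.79% of all tested genes were called (2.68% higher and 3.12% lower). That call was lost without lean IgG2a library 2 (adjusted p = 0.0509), while the averaged call held with each of the 23 libraries left out in turn.

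Vegfb (ENSMUSG00000024962, chromosome 19, 6982473 to 6987651, minus strand), the highest of the 10 in TPM, also fell. It ranged between 31.9 and 137.5 CPM with a median of 93.1 in obese anti-PD-1 mice, and was 61.4, 98.9, 48.8, 107 and 44.8 CPM in obese IgG2a mice. It was 106, 136, 134, 171 and 174 CPM in lean anti-PD-1 mice and 161.5, 190.5, 125, 84.0 and 211 CPM in lean IgG2a mice. The lowest lean value, 84.0 CPM, lay inside the obese range, and 5 of 13 obese libraries were below every lean one. The averaged log2 fold change was -0.87 (SE 0.22, adjusted p = 0.00795). It was -0.64 under anti-PD-1 (SE 0.291, adjusted p = 0.17) and -1.10 under IgG2a (SE 0.331, adjusted p = 0.0511), neither of which passed. On log2(TPM + 1) with limma-trend the averaged value was -0.50 (adjusted p = 0.132) and was not called.

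Angpt2 (ENSMUSG00000031465, chromosome 8, 18690263 to 18741562, minus strand) was higher in obese mice. In obese anti-PD-1 mice it was between 5.70 and 16.9 CPM with a median of 10.9, and in obese IgG2a mice it was 4.77, 11.1, 6.20, 17.2 and 5.03 CPM. In lean mice it was 4.41, 3.31, 7.62, 3.22 and 7.23 CPM under anti-PD-1 and 4.75, 5.09, 6.99, 3.67 and 5.47 CPM under IgG2a. No lean library exceeded 7.62 CPM, and 8 of 13 obese libraries lay above that. The averaged log2 fold change was 0.93 (SE 0.265, adjusted p = 0.0164). It was 1.09 under anti-PD-1 (SE 0.362, adjusted p = 0.0565) and 0.77 under IgG2a (SE 0.388, adjusted p = 0.28). The averaged call was lost with the B cell score as a covariate (0.74, adjusted p = 0.0558) and with the skeletal muscle score as a covariate (0.82, adjusted p = 0.1).

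Vegfc (ENSMUSG00000031520, chromosome 8, 54077606 to 54187096, plus strand) rose in obese mice under anti-PD-1. It was between 2.73 and 10.5 CPM with a median of 6.90 in obese anti-PD-1 mice, and 3.55, 4.59, 2.71, 8.96 and 3.19 CPM in obese IgG2a mice. It was 2.32, 3.14, 4.31, 3.03 and 2.73 CPM in lean anti-PD-1 mice and 3.40, 3.31, 3.61, 2.16 and 5.65 CPM in lean IgG2a mice. Under anti-PD-1, 6 of 8 obese libraries exceeded every lean one, and the log2 fold change was 1.16 (SE 0.365, adjusted p = 0.0454). It was the 1 of 10 genes called in that comparison, where 10.1% of all tested genes were called (5.2% higher and 4.85% lower). The call was close to the threshold: it held in 9 of 23 fits with 1 library left out, with values of 1.06 to 1.30 and adjusted p-values of 0.0187 to 0.101. It was lost without any of obese anti-PD-1 libraries 1, 2, 5, 6, 7 and 8, obese IgG2a library 2, lean anti-PD-1 libraries 1, 2, 4 and 5, and lean IgG2a libraries 1, 2 and 3. Averaged over the antibodies the value was 0.75 (SE 0.265, adjusted p = 0.0505), and under IgG2a it was 0.34 (SE 0.389, adjusted p = 0.735).

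**Figure D2:**
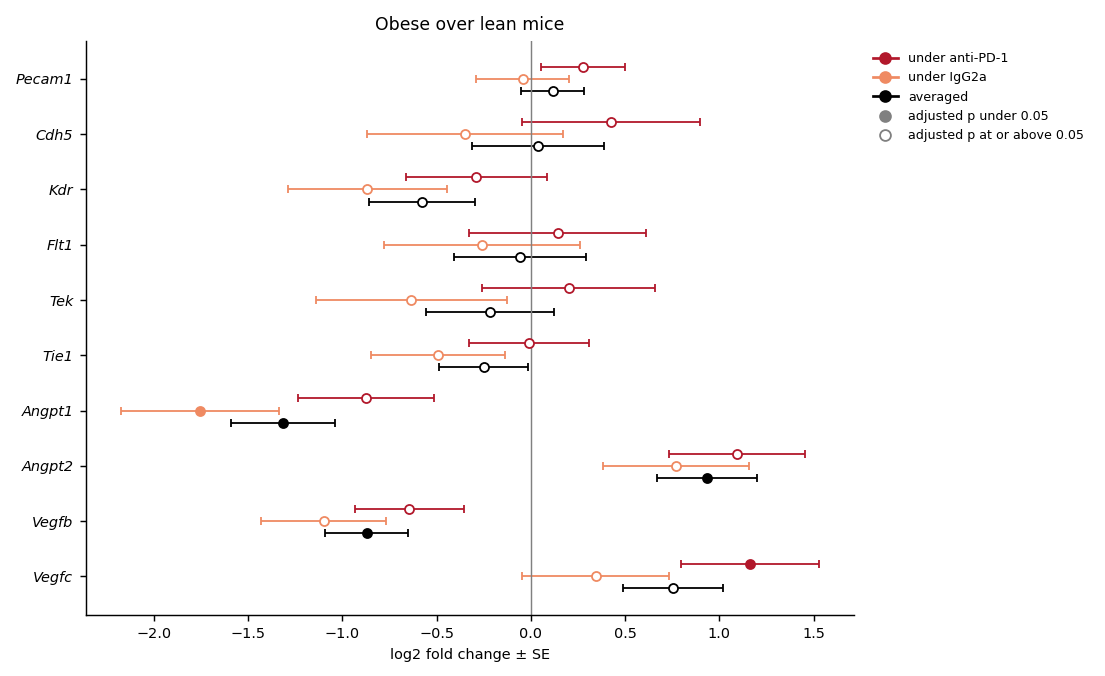
Log2 fold change ± SE (horizontal axis) of obese over lean mice for each gene under anti-PD-1, under IgG2a and averaged; filled points passed an adjusted p of 0.05. Filled points are Angpt1 (-1.76 under IgG2a, -1.31 averaged), Vegfb (-0.87 averaged), Angpt2 (0.93 averaged) and Vegfc (1.16 under anti-PD-1), and the 6 junction and receptor genes have none.

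Ratios of ligands within a library separated the diets without overlap, which the CPM of none of the 10 genes did. The log2 ratio of Angpt2 to Angpt1, in TPM, averaged 0.48 ± 0.219 in obese anti-PD-1 and 0.45 ± 0.233 in obese IgG2a mice, against -1.79 ± 1.04 in lean anti-PD-1 and -1.73 ± 1.04 in lean IgG2a mice. All 13 obese libraries exceeded all 10 lean ones, with obese values of 0.10 to 0.82 and a highest lean value of -0.06 (lean IgG2a library 3). The difference between the means was 2.23 log2 units. These ratios combine genes already tested above and are given as a description with no test. The ratio also counts Angpt2-202, a transcript that codes for no protein, which took 42.9% and 64.7% of the gene's TPM in obese anti-PD-1 libraries 1 and 5, and 60.1% in lean IgG2a library 3. With coding transcripts alone the difference was 2.18 and 12 of 13 obese libraries exceeded every lean one.

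The ratio of Vegfc to Vegfb, chosen after its values were seen, showed the same separation. Its log2 value averaged -4.50 ± 0.230 in obese anti-PD-1 and -4.78 ± 0.323 in obese IgG2a mice, against -6.30 ± 0.394 in lean anti-PD-1 and -6.17 ± 0.298 in lean IgG2a mice. The highest obese value was -4.16 and the lowest -5.18, and the highest lean value was -5.71. Vegfb was the more abundant of the pair in each library. The log2 ratio of Kdr to Flt1 was 0.37 ± 0.390 and 0.44 ± 0.479 in the obese groups, against 0.71 ± 0.102 and 0.95 ± 0.147 in the lean groups. Here 11 of 13 obese libraries lay below every lean one, while obese anti-PD-1 library 3 (1.26) and obese IgG2a library 1 (1.23) lay above every lean one.

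**Figure D3:**
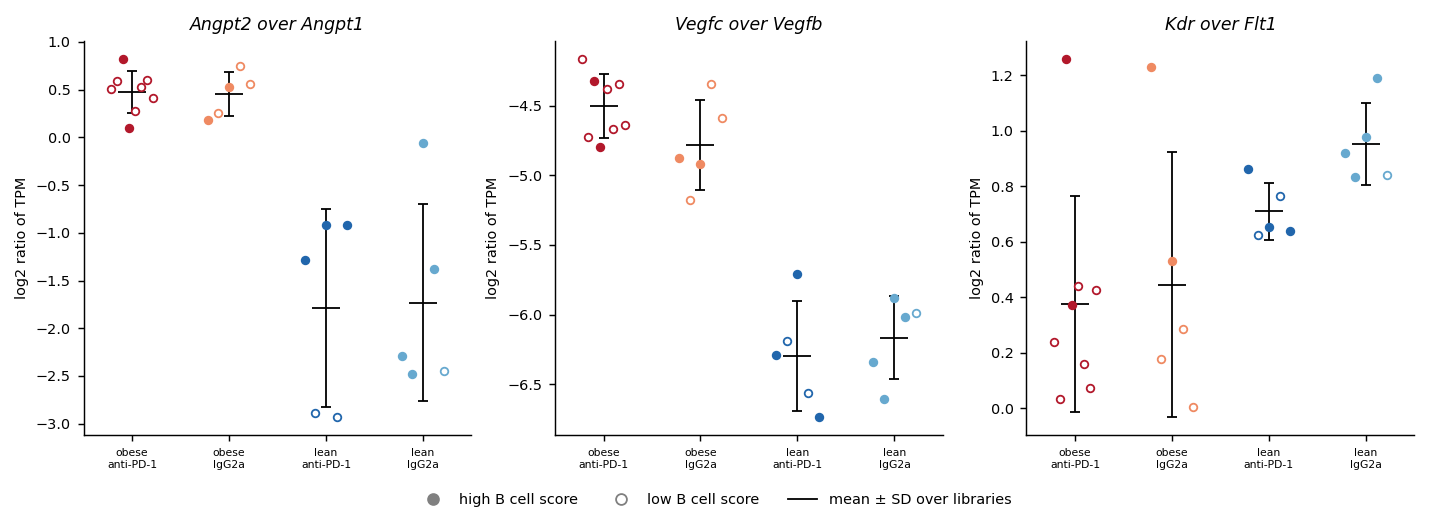
Log2 ratio of TPM (vertical axes) of Angpt2 over Angpt1, Vegfc over Vegfb and Kdr over Flt1 in every library, by group; filled points have a high and open points a low B cell score, and bars are the mean ± SD. All 13 obese libraries lie above all 10 lean ones in the first and second panels, and 2 filled obese points lie above the lean ones in the third.

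The mean of Pecam1 and Cdh5 served as an endothelial yardstick for the other members. The pair parted in the 4 high-score obese libraries, where the log2 ratio of Cdh5 to Pecam1 was -2.59 to -1.83. It was -0.76 to -0.10 in the 9 low-score obese ones. Among the high-score lean libraries it was -1.45 in anti-PD-1 library 1, -1.51 in IgG2a library 4 and -0.84 to -0.27 in the rest. The yardstick is thus not a common measure in the libraries where the pair parted, obese or lean. The log2 TPM ratio to that mean differed between obese and lean mice (obese minus lean) by -1.37 for Angpt1, -0.96 for Vegfb and -0.69 for Kdr, and by 0.86 for Angpt2 and 0.67 for Vegfc. For Flt1, Tek and Tie1 it differed by -0.26, -0.35 and -0.32. For Angpt1, 9 of 13 obese libraries lay below every lean one, for Vegfb 10, for Kdr and Tie1 7, and for Flt1 and Tek 3. For Vegfc 8 of 13 lay above every lean one, and for Angpt2 none did. The yardstick is itself made of members, so these differences are a description.

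The comparison of diets was repeated within each set of libraries. In the 11 high-score libraries (4 obese and 7 lean), Cdh5, Kdr, Flt1, Tek, Tie1, Angpt1 and Vegfb were lower in obese mice. In the 12 with a low score (9 obese and 3 lean), Angpt1 and Vegfb fell, Angpt2 rose, and the other 7 did not pass. With the high-score libraries alone, 7 of 10 genes were called lower in obese mice, where 11.3% of all genes tested there were called lower. With the low-score libraries alone, 3 of 10 were called, where 12.9% of all genes were called.

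Kdr averaged 44.5 ± 5.34 CPM in the 4 high-score obese libraries, against 139 ± 48.8 in the 7 high-score lean ones, and each of the 4 lay below every lean one. Its log2 fold change in those libraries was -1.64 (SE 0.273, adjusted p = 0.00235). Flt1 averaged 28.8 ± 10.8 CPM, against 88.5 ± 39.5 CPM in lean mice, with a log2 fold change of -1.64 (SE 0.346, adjusted p = 0.00816). Cdh5 averaged 62.1 ± 14.0 CPM, against 174 ± 70.7 CPM in lean mice, with a log2 fold change of -1.51 (SE 0.294, adjusted p = 0.00556). Tek and Tie1 fell by 1.51 and 0.99 on the log2 scale (adjusted p = 0.0132 and 0.00658). Angpt1 and Vegfb fell by 1.86 and 1.48 (adjusted p = 0.00181 and 0.00327). Pecam1, in contrast, averaged 229.5 ± 9.33 CPM in those obese libraries and 227.5 ± 31.4 CPM in the lean ones, with a log2 fold change of 0.02 (SE 0.146, adjusted p = 0.955).

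In the low-score libraries none of the 6 junction and receptor genes was called. Pecam1, whose high-score obese values lay within the range of the lean ones, here had 6 of 9 obese libraries above and 2 below every lean one. Kdr averaged 132 ± 42.1 CPM in 9 obese mice and 167 ± 58.4 CPM in 3 lean mice, a log2 fold change of -0.55 (SE 0.305, adjusted p = 0.251). Flt1 averaged 129 ± 40.8 CPM in obese and 112 ± 33.1 CPM in lean mice, with a log2 fold change of 0.01 (SE 0.297, adjusted p = 1.0). Angpt1 averaged 12.2 ± 4.46 CPM in obese and 31.8 ± 3.63 CPM in lean mice, with 9 of 9 obese libraries below every lean one. Its log2 fold change was -1.61 (SE 0.305, adjusted p = 0.00491). Angpt2 averaged 12.2 ± 4.198 CPM in obese and 4.00 ± 1.27 CPM in lean mice, with 8 of 9 obese libraries above every lean one and a log2 fold change of 1.42 (SE 0.403, adjusted p = 0.0347). In the high-score libraries it averaged 5.67 ± 0.637 CPM in obese and 5.68 ± 1.57 CPM in lean mice. Vegfb fell by 0.99 (adjusted p = 0.0172), and Vegfc had a value of 0.63 (SE 0.381, adjusted p = 0.29). In the high-score libraries the averaged Vegfc value was 0.01 (SE 0.305, adjusted p = 0.994), and 0 of 4 obese libraries lay above every lean one. Under anti-PD-1, where Vegfc was called over all libraries, its value was 0.05 (adjusted p = 0.974) in the high-score and 1.33 (adjusted p = 0.0774) in the low-score libraries, and neither passed.

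The difference between the sets was itself tested with a term for diet and B cell score class, added after the data were seen. The obesity effect was more negative in high-score than in low-score libraries for Cdh5 (log2 difference -1.83, SE 0.508, adjusted p = 0.0292), Flt1 (-1.78, SE 0.479, adjusted p = 0.0248) and Angpt2 (-1.58, SE 0.462, adjusted p = 0.0363). Thus 3 of 10 genes were called, where 8.87% of all tested genes were (6.57% lower). These calls rested on few libraries: Cdh5 was called in 10, Flt1 in 13 and Angpt2 in 6 of 23 fits with 1 library left out. The Flt1 call was lost without obese anti-PD-1 library 2, obese IgG2a libraries 1, 3 and 4, lean anti-PD-1 libraries 2, 3, 4 and 5, or lean IgG2a libraries 2 and 3. The Cdh5 call was lost without any of those and without obese anti-PD-1 libraries 1, 3 and 7. The Angpt2 call was kept without obese anti-PD-1 libraries 5, 6 and 8, obese IgG2a library 5, and lean IgG2a libraries 4 and 5, and lost without each of the others. Kdr (-1.23, adjusted p = 0.0746), Tek (-1.29, adjusted p = 0.0936) and Tie1 (-0.78, adjusted p = 0.224) did not pass. Other scores moved with the same libraries. The B cell score was 7.47 to 8.29 in the high-score obese and 5.16 to 7.70 in the high-score lean libraries, and the adipocyte score was 8.07 to 9.32 against 9.41 to 10.7. The score of high endothelial venule genes, which mark the vessels where lymphocytes enter lymph nodes, was 4.14 to 4.69 against 2.72 to 3.73. The part of these in the result was not tested. With the B cell score as a covariate in all 23 libraries, Kdr (-0.99, adjusted p = 0.00295), Tek (-0.79, adjusted p = 0.0203) and Tie1 (-0.54, adjusted p = 0.0414) were called lower in obese mice beside Angpt1 and Vegfb, where 12.6% of genes were called lower.

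**Figure D4:**
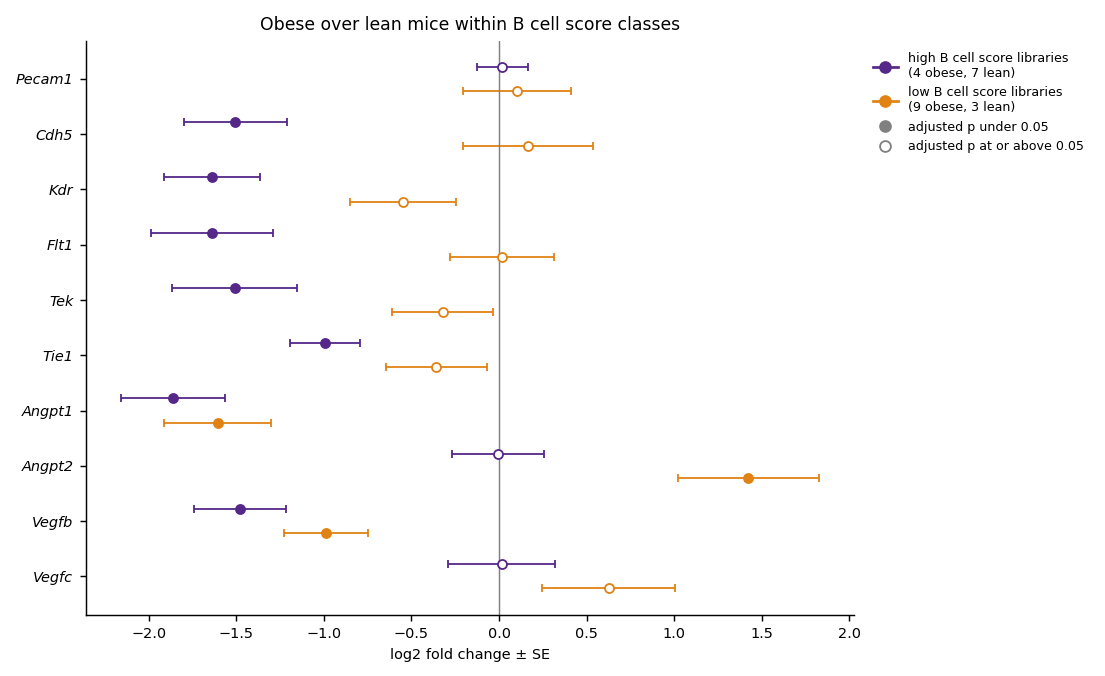
Log2 fold change ± SE (horizontal axis) of obese over lean mice, averaged over the antibodies, fitted separately for high (4 obese, 7 lean) and low (9 obese, 3 lean) B cell scores; filled points passed an adjusted p of 0.05. In the high-score libraries Cdh5, Kdr, Flt1, Tek and Tie1 are filled (-0.99 to -1.64), in the low-score ones Angpt2 is (1.42), and Angpt1 and Vegfb are in both; of these, the difference between the sets passed its own test for Cdh5, Flt1 and Angpt2 and not for Kdr, Tek and Tie1.

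The genes were also compared by how they varied together between libraries. Within the 11 high-score libraries, Pearson's r of log2 CPM among Cdh5, Kdr, Flt1, Tek and Tie1 was 0.873 to 0.982, and within the 12 low-score libraries it was 0.792 to 0.949. Pecam1 followed these 5 genes in the low-score libraries (0.756 to 0.984) and little in the high-score ones (0.089 to 0.292). Angpt1 and Vegfb varied together in both (0.954 and 0.901). They were not apart from the 5 genes in the high-score libraries, where Angpt1 had r of 0.844 to 0.889 with them and Vegfb 0.909 to 0.931. In the low-score libraries these were 0.247 to 0.632 and 0.44 to 0.73. Angpt2 and Vegfc had r of 0.537 in the high-score and 0.88 in the low-score libraries. Vegfc had r of -0.051 to 0.25 with the 5 genes in the high-score and 0.386 to 0.82 in the low-score libraries. These values are a description: the points share the make-up of each library, and obese and lean mice are pooled in them.

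Genes outside the 10 that were most like them were ranked by r with the mean standardized log2 CPM of Pecam1, Cdh5, Kdr and Tie1 over 23 libraries, among 12357 genes with a mean of at least 4 CPM. The first 10 were Epas1, Mecom, Ldb2, Arhgef15, Ppp1r2, Sparcl1, Aplnr, Adgrl4, Spry1 and Smoc2, with r of 0.91 down to 0.885. Epas1 encodes a hypoxia-inducible factor subunit and Aplnr the apelin receptor, both known in endothelium.

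Anti-PD-1 was then set against IgG2a within each diet, to ask whether checkpoint blockade changed the vessel genes. None of the 10 passed in either diet. In obese mice all 10 fitted values were above 0, between 0.26 for Pecam1 (SE 0.223, adjusted p = 0.654) and 0.77 for Cdh5 (SE 0.479, adjusted p = 0.491), and their median was 0.60 against -0.00 over all tested genes. The smallest p belonged to Tie1 (0.66, SE 0.326, adjusted p = 0.378). In that comparison 0.538% of all tested genes were called, 0 of 10 members had an unadjusted p under 0.05 (13.6% of all genes did), and DESeq2 called 0 members and 400 genes. The share of high-score libraries was uneven, 2 of 8 under anti-PD-1 and 2 of 5 under IgG2a, and its part in these values was not tested. With the high-score libraries alone, 2 in each group, the values of Pecam1 (-0.02), Tie1 (-0.15) and Vegfb (-0.25) were below 0 and those of the other members were not. With the low-score libraries alone, or with the B cell score as a covariate, none of the 10 values turned below 0.

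In lean mice the antibody values lay between -0.27 for Angpt1 (SE 0.406) and 0.22 for Flt1 (SE 0.52), each with an adjusted p of 1.0. There 0% of all genes were called, 0 of 10 members and 472 genes (2.37%) had an unadjusted p under 0.05, and DESeq2 called 0 members and 22 genes. The interaction, in which the antibody effect of lean mice is subtracted from that of obese mice, was positive for all 10, between 0.32 for Pecam1 and 0.88 for Angpt1 (SE 0.551, adjusted p = 0.755). No gene was called (0%), 0 members and 1449 genes (7.29%) had an unadjusted p under 0.05, and DESeq2 called 0 members and 50 genes. The comparisons within the diets and the interaction share libraries.

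Flt1 makes a full-length receptor and a shortened, secreted form that binds VEGF without signalling. The deposited estimates list both, and their coding sequences part after 1972 shared bases. The stretch around that point is shown because it is where the membrane receptor and the soluble decoy become different proteins. Coding bases 1943 to 2064 of each transcript are given (chromosome 5, minus strand, GENCODE M21, 5′ to 3′), with capitals from the point where they part.
Flt1-202: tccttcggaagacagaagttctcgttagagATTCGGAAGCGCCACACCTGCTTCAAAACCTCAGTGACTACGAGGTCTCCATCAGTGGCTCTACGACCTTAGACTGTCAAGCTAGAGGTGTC
Flt1-203: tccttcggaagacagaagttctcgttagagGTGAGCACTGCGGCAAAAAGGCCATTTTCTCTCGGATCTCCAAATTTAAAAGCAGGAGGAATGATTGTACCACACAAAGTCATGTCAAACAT
Flt1-202 codes for 1333 residues over 30 coding exons and Flt1-203 for 688 residues over 13. Flt1-203 took 32.0 ± 4.38% of the gene's TPM in obese anti-PD-1 and 32.0 ± 3.83% in obese IgG2a mice, against 28.6 ± 5.46% in lean anti-PD-1 and 29.6 ± 1.97% in lean IgG2a mice. The libraries overlapped, with the highest share, 42.4%, in obese anti-PD-1 library 3 and the lowest, 19.6%, in lean anti-PD-1 library 2. The first of these had the lowest total, 20.4 CPM. No test was made on shares, since they are estimates that split reads between transcripts with 1972 coding bases in common.

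Vegfb also makes a pair of proteins, of 207 (Vegfb-201) and 188 residues (Vegfb-202), which differ in how tightly they bind heparin. Vegfb-202 took 47.8 ± 4.53% of TPM in obese anti-PD-1 and 50.6 ± 5.34% in obese IgG2a mice, against 48.9 ± 5.04% in lean anti-PD-1 and 50.9 ± 5.99% in lean IgG2a mice. The group means lay within 1 SD of each other. Angpt1, Cdh5 and Vegfc were listed with 1 transcript each. Shares of Pecam1 and Tek transcripts varied widely between libraries, Tek-201 between 0% and 67.9%.

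**Figure D5:**
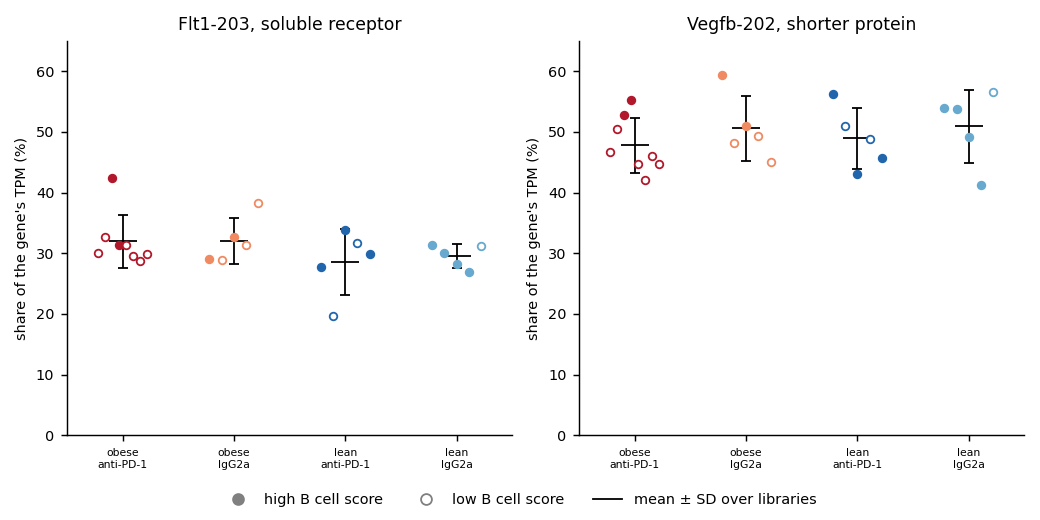
Share of the gene's TPM (%, vertical axis) taken by Flt1-203, which codes for the soluble receptor, and Vegfb-202, in every library by group; filled points have a high and open points a low B cell score, and bars are the mean ± SD. Group means lie between 28.6% and 32.0% for Flt1-203 and between 47.8% and 50.9% for Vegfb-202.

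Other vascular genes were counted from lists of known members. The shares of all tested genes called, against which the counts stand, were 10.1% under anti-PD-1 (5.2% higher, 4.85% lower), 5.79% under IgG2a (2.68% higher, 3.12% lower) and 18.8% averaged (10.6% higher, 8.15% lower). Angiogenesis inhibitors had the highest median of the 8 vascular lists: 3 of 8 rose in obese mice under anti-PD-1, 2 under IgG2a and 5 averaged, and none fell. The median log2 fold change of the list was 1.81, 1.65 and 1.71 in the same order, against 0.07, 0.12 and 0.12 over all tested genes. Thbs2, which encodes the secreted inhibitor thrombospondin-2, averaged 373 ± 207 CPM in obese anti-PD-1 and 330 ± 292 in obese IgG2a mice, against 31.8 ± 31.8 in lean anti-PD-1 and 37.3 ± 26.7 in lean IgG2a mice. Its averaged log2 fold change was 3.35 (SE 0.499, adjusted p = 6.7e-05). Thbs1, its paralog, averaged 164 ± 95.9 and 157 ± 111 CPM in the obese groups, against 32.2 ± 18.0 and 30.8 ± 9.74 in the lean groups, with an averaged log2 fold change of 2.35 (SE 0.377, adjusted p = 0.000144). Sema3f, a repellent ligand for neuropilin, rose by 1.55 (adjusted p = 0.000539) and Col18a1, the source of endostatin, by 1.95 (adjusted p = 0.00601). Adamts1, named after its value was seen, rose by 1.08 (adjusted p = 0.0164). In the high-score libraries alone the averaged values of Col18a1 (-0.38) and Sema3f (0.46) were not called. Thbs1 and Thbs2 averaged were called under 10 of 10 other settings. Under IgG2a these 2 were the calls, and they held under 8 and 9 of 11. Both were lost without obese IgG2a libraries 2 and 5 (adjusted p = 0.0975 and 0.0578 by edgeR). Averaged Col18a1 was also lost there (1.28, adjusted p = 0.0636) and with the muscle covariate (1.80, adjusted p = 0.081). Thbs1 was not called in high-score libraries under IgG2a (0.65) or anti-PD-1 (1.19).

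In the VEGF and angiopoietin pathway, 2 of 15 other genes rose under anti-PD-1, 1 under IgG2a and 2 averaged, and none fell (medians 0.72, 0.22 and 0.37). Against all genes called in either direction, the averaged count is a smaller share and the others are close. Against all genes called higher (5.2%, 2.68% and 10.6% in the same order), each count is a larger share, though of 1 or 2 genes. Svep1, a matrix protein that binds angiopoietins and Tie1, averaged 279 ± 150 CPM in obese anti-PD-1 and 174 ± 176 in obese IgG2a mice, against 35.6 ± 11.8 in lean anti-PD-1 and 49.0 ± 26.3 in lean IgG2a mice. Its log2 fold change was 2.97 under anti-PD-1 (SE 0.652, adjusted p = 0.00589) and 2.40 averaged (adjusted p = 0.000883), and in the high-score libraries it was 0.35 and not called. Nrp2, a co-receptor for VEGF-C, rose by 1.61 under IgG2a (adjusted p = 0.0302) and by 1.12 averaged (adjusted p = 0.00999); in the high-score libraries the averaged value was -0.20. Without any of obese IgG2a libraries 2 and 5 and lean IgG2a libraries 1, 2, 4 and 5 its IgG2a call was lost. Plcg1, which carries the signal of Kdr, rose by 0.63 under anti-PD-1 (adjusted p = 0.0301), a call lost without obese anti-PD-1 libraries 5 and 6 or lean anti-PD-1 libraries 2, 4 and 5, each left out alone. In the high-score libraries Plcg1 was at 0.03 and not called. Vegfa, the main ligand of Kdr, lies outside the naming rule and did not pass: it averaged 138 ± 91.8 CPM in the 13 obese and 109.9 ± 46.2 CPM in the 10 lean mice, with an averaged log2 fold change of 0.31 (SE 0.299, adjusted p = 0.553).

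Of other pan-endothelial genes, 1 of 20 rose under anti-PD-1, none was called under IgG2a, and 1 rose and 1 fell averaged, in each case a smaller share than that of all genes. Ramp2, a co-receptor for adrenomedullin, rose by 0.97 under anti-PD-1 (SE 0.251, adjusted p = 0.0168) and by 0.61 averaged (adjusted p = 0.0226). Emcn, a sialomucin of capillaries and veins, fell by 0.81 averaged (SE 0.21, adjusted p = 0.00978), with 19.3 ± 6.76 CPM in obese and 34.1 ± 10.2 CPM in lean mice. Under IgG2a Emcn was at -0.93 (adjusted p = 0.0833), and on log2(TPM + 1) its averaged value was -0.47 (adjusted p = 0.108). Under anti-PD-1 Ramp2 was at 0.62 in the high-score and 0.94 in the low-score libraries, neither called, and averaged it was at 0.30 and not called in the low-score ones. Among 14 tip cell and Notch genes, 1 rose and 1 fell under anti-PD-1, none was called under IgG2a, and 2 rose and 1 fell averaged, shares close to those of all genes or, under IgG2a, below it. The Notch target Hey1 fell by 1.03 averaged (adjusted p = 0.00854), and the Notch ligand Dll4 rose by 0.80 (adjusted p = 0.0372, and 0.17 and not called in the high-score libraries). Apln, the apelin ligand, rose by 1.20 averaged (adjusted p = 0.0423), and it was at -0.80 in the high-score libraries. With 1 library left out the Dll4 call was lost for obese IgG2a library 4, lean anti-PD-1 libraries 1, 2 and 3, and lean IgG2a libraries 1 and 3. The Apln call was lost for obese anti-PD-1 libraries 5, 6 and 7, obese IgG2a libraries 2, 4 and 5, lean anti-PD-1 libraries 1, 2 and 5, and lean IgG2a libraries 1, 2, 4 and 5. Among 9 genes of fatty acid handling in capillaries, Fabp5 fell in all 3 comparisons, by 1.13, 1.79 and 1.46 (adjusted p = 0.0232, 0.00467 and 0.000166), and Meox2 rose by 0.90 under anti-PD-1 (adjusted p = 0.0359). Whole-tissue counts do not show whether these transcripts came from capillaries or from other cells. Under anti-PD-1 the Fabp5 call was lost without lean anti-PD-1 library 3 or 4, and the Meox2 call without obese anti-PD-1 library 2 or 7 or lean anti-PD-1 library 1, 2 or 4. Meox2 was at 0.13 and not called in the high-score libraries. Averaged on log2(TPM + 1), Hey1 was at -0.48 (adjusted p = 0.176), and under anti-PD-1 Fabp5 was at -0.67 (adjusted p = 0.133).

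Among 12 pericyte and vascular smooth muscle genes, 3 rose under anti-PD-1, 1 fell under IgG2a, and 4 rose and 2 fell averaged. Mcam, an adhesion molecule of pericytes and endothelium, rose by 2.11 under anti-PD-1 (SE 0.496, adjusted p = 0.00946), with 442 ± 203 CPM in obese anti-PD-1 and 102 ± 52.0 CPM in lean anti-PD-1 mice. Abcc9 rose by 1.18 and Rgs5 by 1.20 in the same comparison (adjusted p = 0.0151 and 0.0173), the second lost without lean anti-PD-1 library 2. In the high-score libraries alone the 3 values were 0.65 for Mcam, 0.36 for Abcc9 and 0.15 for Rgs5 (adjusted p = 0.456, 0.516 and 0.767), none called. With the skeletal muscle score as a covariate Abcc9 (1.04, adjusted p = 0.0545) and Rgs5 (1.05, adjusted p = 0.0549) were not called either. The IgG2a call was Cspg4 (-1.79, adjusted p = 0.0361), which was lost without obese IgG2a library 1, 2, 3 or 5 or lean IgG2a library 1, 2, 3 or 5, and was called under 6 of 11 other settings. Cspg4, which encodes the NG2 proteoglycan of pericytes, fell by 1.495 averaged (adjusted p = 0.00295), and Cnn1, a smooth muscle calponin, fell by 1.29 (adjusted p = 0.0168, and -0.78 with an adjusted p of 0.0716 on log2(TPM + 1)). Of the 8 lymphatic endothelial and the 9 high endothelial venule and activated endothelial genes, none passed in any of the 3 obesity comparisons. Both lists moved with the B cell score. The mean of the venule list was 2.72 to 4.69 in high-score and -1.19 to 0.487 in low-score libraries. That of the lymphatic list was 1.14 to 3.12 and -0.321 to 0.927. These comparisons held no term for the score, so they do not show that the diets were alike in these genes.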

How the data were processed

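Poly(A) RNA was made into libraries that keep no strand, from samples with an RNA integrity number above 5, per the labels' protocols. The deposited tables give estimated counts, not normalized, and TPM for 115088 transcripts; the estimating program was not given in the sources used here. The submitters' processing notes name GRCm38, edgeR and limma without versions. Transcripts were matched to GENCODE M21 (114200 matched, 888 did not, holding at most 0.208% of a library's counts), summed per gene and rounded.

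Genes were filtered with filterByExpr (minimum count 10) and scaled by TMM. A model with a mean for each group was fitted over the 23 libraries in edgeR 4.0.16 (R 4.3.3), quasi-likelihood with robust dispersions; the common biological coefficient of variation was 0.805. Compared were obese and lean mice under anti-PD-1, under IgG2a and averaged, anti-PD-1 against IgG2a in each diet, and the interaction. Depth bears on counting error only. The fits were also run on simulated counts. These had a smaller spread between libraries than the common value above and held no B cell score sets. That run therefore does not show how the fits perform on these data.

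Alternatives were DESeq2 1.42.0 (size factors or test), no filter, a stricter filter (1 CPM in 5 libraries), limma-trend 3.58.1 on log2(TPM + 1), B cell or skeletal muscle scores as a covariate, the B cell score sets apart, a fit of just the groups compared, and leaving out each library in turn. The B cell sets were split at the largest gap between sorted scores. Leaving out obese IgG2a libraries 2 and 5 together, the test between B cell score sets, the ratio of Vegfc to Vegfb and ratios of coding transcripts were added after seeing the data. The members, lists and tests were chosen with earlier results of these data known. From each list the text names at most the 4 called genes of smallest p in a comparison, and says where it names others; Alb and Hmga2 were named after their values were seen.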

Additional observations from a re-analysis of the deposited data

Results flagged for a closer look

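Obese anti-PD-1 library 3 lay far from the other libraries of its group in 2 measures that involve Flt1. Its log2 ratio of Kdr to Flt1 was 1.259, and its share of Flt1-203 was 42.4%. These were 2 of 60 sets of samples screened for a library far from the rest, and chance flags about 1 in 20 groups. It is 1 of the 2 high B cell score libraries of its group and had the lowest Flt1 level of all, 20.4 CPM. The same screen did not flag that level.

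The effect of obesity differed between high-score and low-score libraries (B cell score) for 3 of the 10 genes. The log2 difference (high minus low) was -1.825 for Cdh5, -1.783 for Flt1 and -1.580 for Angpt2, by edgeR's quasi-likelihood test with adjusted p-values of 0.0292, 0.0248 and 0.0363. With each library left out in turn the values ranged between -2.27 and -1.38 for Cdh5, -2.06 and -1.41 for Flt1, and -2.08 and -1.21 for Angpt2, with adjusted p-values up to 0.0845, 0.0755 and 0.111.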

How the results depend on the processing

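No paired analysis was possible because the replicate numbers follow the order of the samples and link no animals across groups. Of the 10 genes' calls, Angpt1 averaged over the antibodies held under 10 of 10 other settings and without each library in turn (-1.44 to -1.21). Vegfb averaged held under 9 of 10 and Angpt2 averaged under 7 of 10, each also without any 1 library. Angpt1 under IgG2a held under 7 of 11 and Vegfc under anti-PD-1 under 5 of 11. Counting error bears most on Angpt2 and Vegfc, the members of lowest count, and 4 high-score obese and 3 low-score lean libraries limit the split by B cell score.

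Between obese and lean mice the counts of all genes called were 1999 under anti-PD-1, 1152 under IgG2a and 3731 averaged. DESeq2's test gave 3117 and 2075 under the 2 antibodies. On log2(TPM + 1) with limma-trend 3607 were called under anti-PD-1 and 5828 averaged, with the median of all genes at 0.27 and 0.25 against 0.07 and 0.12 in edgeR. The muscle covariate gave 1152, 497 and 1756, and high-score libraries alone 574 and 1896 under the 2 antibodies. Under IgG2a, 583 were called with only the groups compared, 2966 with the B cell covariate, 255 in low-score libraries and 293 without obese IgG2a libraries 2 and 5, where the averaged count was 2370. Anti-PD-1 against IgG2a in obese mice (107 genes) gave 400 with DESeq2, 49 with the stricter filter, 70 with no filter, 605 with the B cell covariate and 767 in low-score libraries. It gave 0 with only the groups compared, on TPM, with the muscle covariate, in high-score libraries and without obese IgG2a libraries 2 and 5. In lean mice (0) the count was 1 with only the groups compared, 22 with DESeq2 and 2 in low-score libraries, and the interaction (0) gave 50 with DESeq2 and 2 in low-score libraries.

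Of the 10 members, under anti-PD-1 (1 called) 2 were called with DESeq2's size factors or test, the stricter filter, the B cell covariate, low-score libraries alone or without obese IgG2a libraries 2 and 5; 3 were called on TPM; and 0 with no filter, the muscle covariate or only the groups compared. Under IgG2a (1 called) it was 2 with DESeq2's size factors or test or the stricter filter, 4 with the B cell covariate and 5 in high-score libraries. It was 0 on TPM, with the muscle covariate, in low-score libraries and without obese IgG2a libraries 2 and 5. Averaged (3 called) it was 5 with the B cell covariate and 7 in high-score libraries. The mean log2 ratio of Angpt2 to Angpt1 in obese anti-PD-1 mice was 0.19 with coding transcripts alone.

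Signs that turned were as follows, with causes not tested. Under anti-PD-1 in high-score libraries: Pecam1 -0.05, Cdh5 -1.40, Flt1 -1.61, Tek -1.28, Angpt2 -0.08 and Apln -0.11; with the B cell covariate Cdh5 -0.31, Flt1 -0.62 and Tek -0.44; with the muscle covariate Flt1 -0.03; on TPM Kdr 0.16 and Tie1 0.40. Tie1 was also 0.03 with no filter, 0.01 with the stricter filter and 0.05 in low-score libraries. Under IgG2a, Pecam1 was 0.20 on TPM, 0.08 in high-score libraries and 0.28 without obese IgG2a libraries 2 and 5. Vegfc was -0.02 in high-score and -0.08 in low-score libraries, and Nrp2 was -0.33 in high-score ones. Averaged, Cdh5 was -0.57 with the B cell covariate, -0.21 with the muscle covariate and -1.51 in high-score libraries. There Angpt2 was -0.00, Nrp2 -0.20, Apln -0.80 and Col18a1 -0.38. Flt1 was 0.17 on TPM and 0.01 in low-score libraries, and Tek and Tie1 were each 0.10 on TPM. For the antibody in obese mice, Pecam1 (-0.02), Tie1 (-0.15) and Vegfb (-0.25) turned in high-score libraries, and Pecam1 (-0.05) without obese IgG2a libraries 2 and 5. In lean mice Flt1 was -0.24 in low-score libraries, and Pecam1 was -0.13 in the interaction in high-score ones.

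Leaving out each library in turn, the genes called ranged between 1108 and 2432 under anti-PD-1, 495 and 1662 under IgG2a, 0 and 643 for the antibody in obese mice, 0 and 1 for the interaction, and 628 and 2108 for diet by B cell score. Members called ranged between 0 and 2 under anti-PD-1, 0 and 3 under IgG2a, and 0 and 3 for diet by B cell score. Under anti-PD-1 Flt1 ranged between -0.03 and 0.37, Tek between -0.03 and 0.44 and Tie1 between -0.12 and 0.18. Under IgG2a Pecam1 ranged between -0.21 and 0.15 and Vegfc between -0.01 and 0.57. Averaged, Cdh5 ranged between -0.28 and 0.18 and Flt1 between -0.33 and 0.06. The antibody value of Flt1 in lean mice ranged between -0.01 and 0.37, and Pecam1 for diet by B cell score between -0.52 and 0.15.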
